A study of Homo sapiens with 3 samples.

Results

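KRT8 and KRT18, keratins of luminal epithelium, and KRT19 and KRT7, keratins of simple epithelia, were followed with 4 genes of basal epithelium. The 4 were the keratins KRT5, KRT14 and KRT15 and the transcription factor TP63. These are 8 of the 33423 genes listed in at least 1 of 3 single-cell RNA-seq libraries. The genes are a list of names, and a gene with no row in a library was counted as 0. At least 1 UMI was found for 5 of the 8 in VCaP parental, 6 in VCaP-ENZ48 and 4 in LNCaP-ENZ168. All were Drop-seq libraries. In this assay droplets pair a cell with a barcoded bead, and each captured mRNA is tagged at its 3′ end with a unique molecular identifier (UMI). VCaP and LNCaP are prostate cancer cell lines that the labels give as sensitive to enzalutamide (ENZ), an inhibitor of androgen receptor signaling.

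VCaP parental was VCaP cells kept 48 h in 0.1% DMSO, the vehicle. VCaP-ENZ48 was VCaP cells kept 48 h in 10 µM ENZ, and LNCaP-ENZ168 was LNCaP cells kept 168 h in 10 µM ENZ. No vehicle library of LNCaP was analysed here, so in the comparison of LNCaP-ENZ168 with VCaP-ENZ48 the cell line, the culture medium and the length of treatment cannot be told apart. Each group had 1 library, so differences have no replicate check and no test was made. The intervals below are 95% intervals and cover counting error only.

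Keratins build the intermediate filaments of epithelial cells as obligate pairs of a type I and a type II chain. In the prostate, the secretory luminal cells are known for the pair of KRT8 (type II) and KRT18 (type I), and the basal cells that line the gland for KRT5 (type II) with KRT14 or KRT15 (type I) and for TP63, the p63 transcription factor. Loss of the basal layer is a usual feature of prostate adenocarcinoma, and p63 and basal keratins are stained for in its diagnosis.

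After filtering, 997, 947 and 944 cells were kept for VCaP parental, VCaP-ENZ48 and LNCaP-ENZ168, with 19515202, 14301287 and 6313283 UMIs. The median cell held 17817, 11224 and 5389 UMIs, in that order, and mitochondrial transcripts took 6.24 to 8.94% of UMIs. Levels are given as CPM, the UMIs of a gene scaled to a total that is the same for all libraries. A UMI marks 1 molecule whatever the length of the transcript, so levels were compared between genes with no division by length. A count of 0 allows a level of up to 0.154, 0.210 and 0.475 CPM, the level of 3 UMIs. ERG, which VCaP overexpresses from a gene fusion, was at 105 and 57.1 CPM in the VCaP libraries and at 0 UMIs in LNCaP-ENZ168. No barcode of the kept cells was shared between libraries, and 86.2, 86.6 and 21.7% of the kept barcodes ended in an undetermined base.

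Transcripts of the luminal pair were abundant in all 3 libraries, and those of the basal genes were at 0 or nearly so. KRT18 was the most abundant of the 8 genes in each library, KRT8 the next, and KRT19 the third. The summed level of KRT8 and KRT18 was 419 CPM in VCaP parental, 613 CPM in VCaP-ENZ48 and 636 CPM in LNCaP-ENZ168. The summed level of KRT5, KRT14, KRT15 and TP63 was 1.28, 0.699 and 0.634 CPM, from 25, 10 and 4 UMIs.

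**Figure D1:**
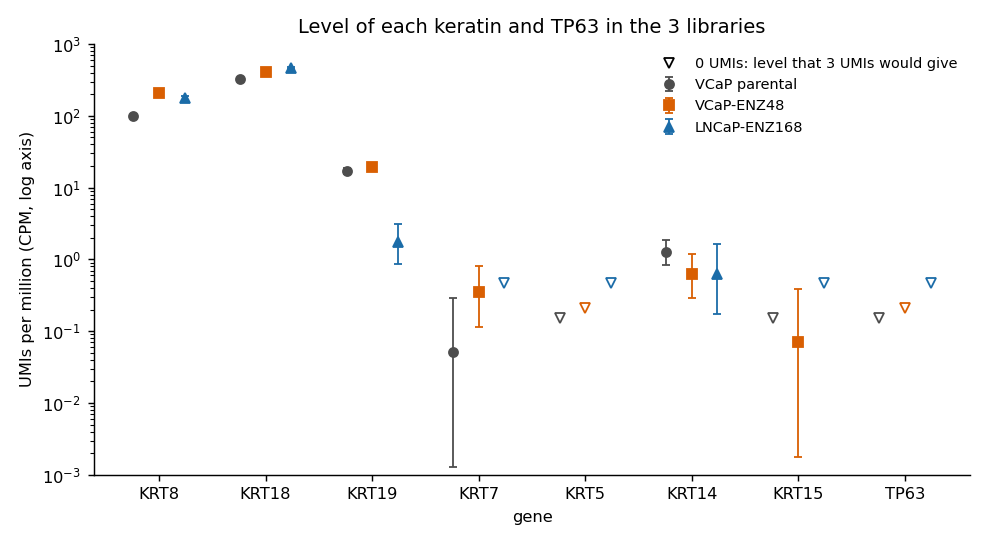
Level of each of the 8 genes in the 3 libraries, in CPM (log axis), with exact Poisson 95% intervals. Open triangles mark a gene with 0 UMIs and stand at the level that 3 UMIs would give. KRT18 and KRT8 lie between 98.4 and 460 CPM, while KRT5 and TP63 have no UMI in any library.

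KRT8 (GRCh38 chromosome 12, 52897187 to 52949954, minus strand) codes for the type II partner of the luminal pair. It was at 98.4 CPM in VCaP parental (95% interval 94.0 to 103, 1920 UMIs). In VCaP-ENZ48 it reached 208 CPM (201 to 216, 2981 UMIs) and in LNCaP-ENZ168 176 CPM (165 to 186, 1109 UMIs). Scaled to library totals, the order was VCaP-ENZ48, LNCaP-ENZ168 and VCaP parental, and no neighbouring intervals overlapped. With TMM factors, another way of scaling, LNCaP-ENZ168 (129 CPM) and VCaP parental (127 CPM) were about level. Among the genes with a UMI, KRT8 ranked 1650th by level in VCaP parental and 594th in VCaP-ENZ48.

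KRT18 (chromosome 12, 52948871 to 52952906, plus strand) codes for the type I partner. It was at 321 CPM in VCaP parental (313 to 329, 6255 UMIs), 404 CPM in VCaP-ENZ48 (394 to 415, 5780 UMIs) and 460 CPM in LNCaP-ENZ168 (444 to 478, 2907 UMIs). Scaled to library totals, its highest level was thus in LNCaP-ENZ168 and not in VCaP-ENZ48, and again no intervals overlapped. With TMM factors the levels were 414, 427 and 337 CPM, and with median-of-ratios factors 400, 430 and 347 CPM. LNCaP-ENZ168 was then the lowest, so this order rests on the scaling. The annotated KRT8 and KRT18 genes lie side by side and overlap by 1084 bases on opposite strands, and the sources used here do not state whether the counting used strand.

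The chains of a pair did not keep 1 ratio. There were 30.7 KRT8 UMIs for each 100 KRT18 UMIs in VCaP parental (29.2 to 32.3), 51.6 in VCaP-ENZ48 (49.3 to 53.9) and 38.1 in LNCaP-ENZ168 (35.6 to 40.9). KRT8 mRNA was therefore the scarcer of the pair in every library, and least so in VCaP-ENZ48. Library size and scaling do not enter this ratio, but the rows counted and the cells used do. With the pseudogene rows described below added to each gene it was 30.0, 48.2 and 38.2. In the lowest part of each library by cell cycle share, also described below, it was 33.9, 48.1 and 39.6. Cells with a share no higher than the VCaP-ENZ48 median gave 34.9, 50.5 and 24.4, from 12, 474 and 48 cells. Since KRT8 and KRT18 made up nearly all keratin UMIs of the 8 genes, the type II members summed to 29.1, 49.2 and 38.0 UMIs for each 100 of the type I members.

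**Figure D2:**
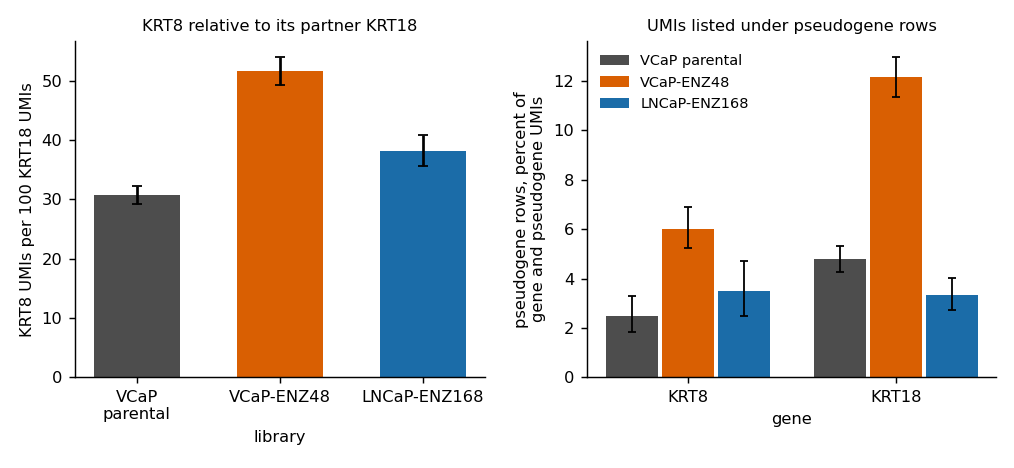
Left, KRT8 UMIs for each 100 KRT18 UMIs in the 3 libraries, with exact 95% intervals; right, the percent of gene and pseudogene UMIs that were listed under pseudogene rows, for KRT8 and KRT18. VCaP-ENZ48 has the highest bar for both, with 51.6 KRT8 UMIs for each 100 of KRT18 and 12.1% of KRT18 UMIs under pseudogene rows.

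KRT8 and KRT18 each have many processed pseudogenes, reverse-transcribed copies of the mRNA, and part of the counts was listed under them. KRT18 pseudogene rows, of which 65 were listed in the files, held 4.78% of the UMIs of gene and pseudogenes in VCaP parental (4.28 to 5.32%), 12.1% in VCaP-ENZ48 (11.4 to 13.0%) and 3.33% in LNCaP-ENZ168 (2.71 to 4.03%). The 42 KRT8 pseudogene rows held 2.49% (1.85 to 3.28%), 6.02% (5.22 to 6.91%) and 3.48% (2.50 to 4.71%). The pseudogene share was therefore highest in VCaP-ENZ48 for both genes. Over all genes, rows annotated as pseudogenes held 0.757, 1.95 and 0.429% of UMIs in the same order. The part that this difference has in the keratin values was not tested beyond adding the pseudogene rows to their gene, which moved the log2 ratio of KRT18 between the VCaP libraries from 0.33 to 0.45 and that of KRT8 from 1.08 to 1.13.

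The rows with the most UMIs were KRT8P12 in all 3 libraries (16, 32 and 21 UMIs) and, for KRT18, KRT18P43 in VCaP parental (28 UMIs), KRT18P11 in VCaP-ENZ48 (75 UMIs) and KRT18P65 in LNCaP-ENZ168 (10 UMIs). Over the aligned length these copies were 90.6, 87.7, 95.9 and 92.0% identical to the mRNA of their gene, for KRT8P12, KRT18P43, KRT18P11 and KRT18P65. The last 60 coding bases of the genes and of the same stretch in 3 of the copies are shown to let the likeness be seen near the 3′ end, the end that Drop-seq counts. They were read from GRCh38, 5′ to 3′ in the sense of the mRNA, and capitals mark the bases of a copy that differ from its gene.
KRT8, chr12:52897428-52897487, minus strand: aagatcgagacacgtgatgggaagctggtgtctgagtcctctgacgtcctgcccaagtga
KRT8P12, chr3:160569187-160569246, plus strand: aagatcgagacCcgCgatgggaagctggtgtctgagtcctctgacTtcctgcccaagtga
KRT18, chr12:52952783-52952842, plus strand: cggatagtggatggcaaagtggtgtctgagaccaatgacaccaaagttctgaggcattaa
KRT18P11, chrX:92460893-92460952, plus strand: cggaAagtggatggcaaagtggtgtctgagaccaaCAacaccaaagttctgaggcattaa
KRT18P65, chr6:112361437-112361496, minus strand: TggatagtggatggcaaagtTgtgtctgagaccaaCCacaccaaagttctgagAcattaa
In this stretch KRT8P12 differs from KRT8 at 3 bases, KRT18P11 from KRT18 at 3 and KRT18P65 from KRT18 at 5. Of the last 300 bases of the gene's transcript, however, only 65 aligned to KRT8P12 for KRT8, while for KRT18 236 aligned to KRT18P11, 229 to KRT18P43 and 236 to KRT18P65. Where reads fall in the aligned stretches, the division of UMIs between gene and pseudogene is uncertain.

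KRT19 (chromosome 17, 41523617 to 41528308, minus strand), the smallest keratin and a type I chain of simple epithelia, was far lower in LNCaP-ENZ168 than in the VCaP libraries. It was at 17.0 CPM in VCaP parental (15.2 to 18.9, 332 UMIs) and at 19.2 CPM in VCaP-ENZ48 (17.0 to 21.6, 275 UMIs), intervals that overlapped. In LNCaP-ENZ168 it was at 1.74 CPM (0.870 to 3.12), from 11 UMIs in 11 cells. KRT7 (chromosome 12, 52232520 to 52252186, plus strand), a type II keratin of other simple and ductal epithelia, had 1 UMI in VCaP parental, 5 in VCaP-ENZ48 and 0 in LNCaP-ENZ168. The ratio of its levels in the VCaP libraries was 6.82, with a counting interval from 0.763 to 323, so no difference was detectable at this depth.

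Of the basal genes, KRT5 (chromosome 12, 52514575 to 52520530), the type II chain of the basal pair, and TP63 (chromosome 3, 189631389 to 189897276) had no row in any of the 3 files. KRT15 (chromosome 17, 41513745 to 41522529), a type I keratin of basal cells, had 1 UMI in VCaP-ENZ48 and 0 in the others. KRT14 (chromosome 17, 41582279 to 41586895), the type I partner of KRT5, was the exception. It had 25 UMIs in VCaP parental (1.28 CPM, 0.829 to 1.89), 9 in VCaP-ENZ48 (0.629 CPM, 0.288 to 1.19) and 4 in LNCaP-ENZ168 (0.634 CPM, 0.173 to 1.62), and all 3 intervals overlapped.

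The KRT14 UMIs were spread thinly. No cell held more than 1, so 25, 9 and 4 cells carried the signal, and all of these cells also held UMIs of KRT8 or KRT18. None held a KRT15 UMI. KRT18 alone was found in 98.7, 90.0 and 88.7% of all cells of these libraries. KRT15 had 1 UMI in VCaP-ENZ48 and 0 in the others. Neither result is therefore read as a trait of the KRT14 cells. Their summed KRT8 and KRT18 level was 429, 564 and 859 CPM, against 419, 613 and 636 CPM over all cells of the same library. No interval was computed for these levels, and the 859 CPM rests on 4 cells, so no difference is read. The median depth of the KRT14 cells was 20916, 21294 and 5643 UMIs, above that of their library. A share of cells with KRT14 in a cell type that should lack the gene could not be given, since each library held 1 cell line, and the part of RNA free in the suspension was not tested.

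A small set of basal markers was checked beside these. Of 8 markers made up of the 4 basal members, KRT17, ITGB4, LAMB3 and COL17A1, 3 had a UMI in VCaP parental, 5 in VCaP-ENZ48 and 2 in LNCaP-ENZ168, with summed levels of 1.74, 1.82 and 1.58 CPM. KRT17, a further basal keratin, was at 0 in all libraries. Of further genes known from basal epithelium, DST, BCAM and ITGA6 had higher levels, at 90.4, 31.7 and 32.8 CPM in VCaP parental. Of 9 stroma and blood markers the summed level was 22.3, 27.6 and 39.8 CPM. LUM, which codes for a matrix proteoglycan, made up 21.0 and 25.2 CPM of this in the VCaP libraries, and VIM, the mesenchymal intermediate filament protein, 29.5 CPM in LNCaP-ENZ168 with 0 and 1 UMIs in the VCaP libraries. ACTA2, TAGLN and COL3A1, genes of smooth muscle and matrix, had at most 31 UMIs in a library. The part of other cell types in the keratin values was not tested.

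The VCaP pair asks how the keratins stand after 48 h of ENZ. KRT8 was 2.12-fold higher in VCaP-ENZ48 (interval 2.00 to 2.24), a log2 ratio of CPM + 1 of 1.08. KRT18 had a log2 ratio of 0.33 (0.28 to 0.39) and KRT19 of 0.17 (-0.06 to 0.41), where these intervals are those of the ratio without the added 1. Summed KRT8 and KRT18 had a log2 ratio of 0.55 (0.50 to 0.59). Summed KRT5, KRT14, KRT15 and TP63 had one of -0.42, with an interval from -2.10 to 0.23 that includes no difference.

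These ratios were read against all genes. Of the 7729 genes that averaged at least 10 CPM over the VCaP pair, 8.19% were at least 2-fold higher in VCaP-ENZ48 and 6.77% at least 2-fold lower, and the median log2 ratio was -0.066. KRT8, KRT18 and KRT19 passed that minimum. KRT8 was the 1 of these 3 at least 2-fold higher, 0 were at least 2-fold lower, and the other 5 members were below the minimum. KRT8 lay above 92.7% of the 7729 genes, KRT18 above 74.8% and KRT19 above 65.9%.

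The scaling sets how far KRT8 and KRT18 stand from 0 but not from the other genes. TMM factors shift the median log2 ratio of CPM + 1 over all genes by -0.28 and median-of-ratios factors by -0.22, with a smaller effect in genes of low level. The factors put KRT8 at 0.79 and 0.85, below 2-fold, KRT18 at 0.04 and 0.10, and KRT19 at -0.11 and -0.05, a change of direction. Relative to the median of all genes KRT8 was 1.14 higher as scaled to library totals, 1.14 higher with TMM and 1.14 higher with median-of-ratios factors.

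**Figure D3:**
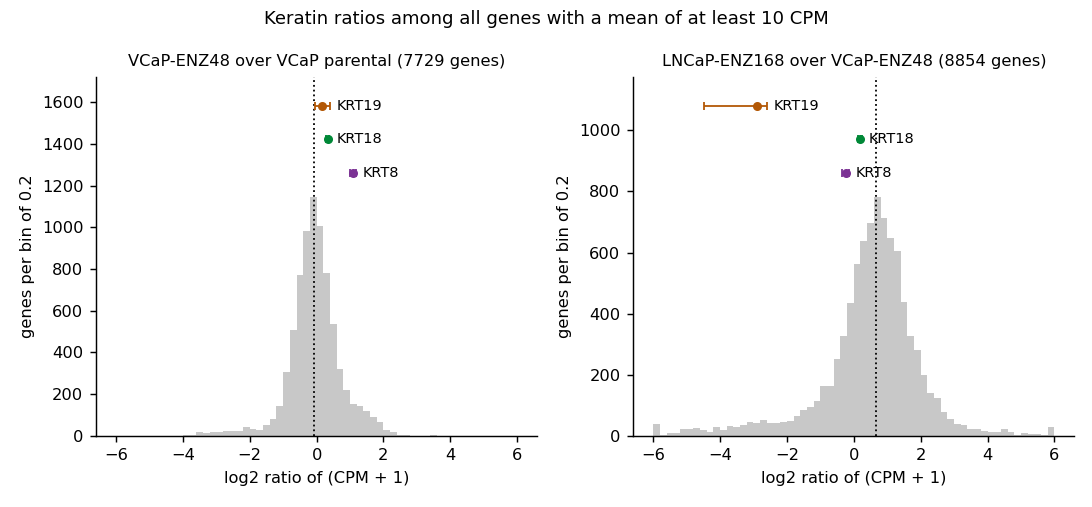
Histograms of the log2 ratio of (CPM + 1) over all genes averaging at least 10 CPM (7729 genes for the VCaP pair, 8854 for the other, values beyond the axis drawn in the end bins), with the median as a dotted line and KRT8, KRT18 and KRT19 as points with exact 95% intervals of the CPM ratio. KRT8 sits in the upper flank on the left, and KRT19 in the lower tail on the right.

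Cell cycle gene expression moved with treatment, and with the keratins. In each library cells were ordered by the share of their UMIs in 97 S and G2M phase genes and divided into 3 parts of equal size. The median share was 0.296, 1.15 and 2.63% in the lowest, middle and highest part of VCaP parental, and 0.131, 0.179 and 0.283% in those of VCaP-ENZ48. Along these parts KRT8 was at 123, 92.7 and 82.4 CPM in VCaP parental but at 186, 217 and 222 CPM in VCaP-ENZ48. KRT8 was thus lower in the cells with more cell cycle transcripts of VCaP parental. In VCaP-ENZ48 its interval in the lowest part (174 to 199 CPM) was below those of the middle and highest parts, which overlapped (205 to 230 and 208 to 237 CPM). All parts of VCaP-ENZ48 had a lower median share than the lowest part of VCaP parental, so the orders cover unlike ranges. Median depth in the VCaP-ENZ48 parts was 10831.5, 13899 and 9649 UMIs. KRT18 was at 363, 313 and 291 CPM in VCaP parental and at 387, 403 and 425 CPM in VCaP-ENZ48. Neighbouring intervals overlapped in VCaP-ENZ48 (369 to 405, 386 to 420 and 406 to 445 CPM).

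Between the lowest parts of the VCaP libraries the log2 ratio was 0.59 for KRT8 and 0.09 for KRT18, smaller than over all cells, so KRT8 was no longer 2-fold apart. KRT19 was at 16.1, 16.8 and 17.99 CPM in the parts of VCaP parental and at 15.3, 16.9 and 26.5 CPM in those of VCaP-ENZ48. In LNCaP-ENZ168, where the median cell cycle shares were 0.237, 0.331 and 0.897%, KRT8 was at 186, 191 and 151 CPM and KRT18 at 469, 469 and 443 CPM. The cells of the parts share a library, and the part of the cell cycle in the keratin values was not tested further.

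**Figure D4:**
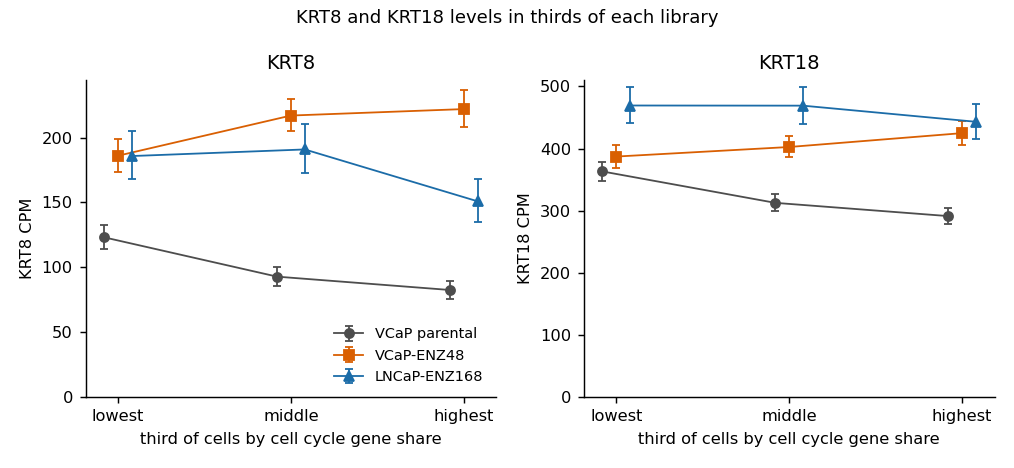
KRT8 (left) and KRT18 (right) level in CPM in the lowest, middle and highest parts of each library by cell cycle gene share, with exact Poisson 95% intervals. In VCaP parental both genes are highest in the lowest part, KRT8 at 123 CPM and KRT18 at 363 CPM, and in VCaP-ENZ48 both are lowest there.

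Levels also differed with depth, barcode ends and mitochondrial share. Divided into 3 parts by depth, cells of VCaP parental gave KRT8 levels of 88.2 to 116 CPM, those of VCaP-ENZ48 198 to 235 CPM and those of LNCaP-ENZ168 170 to 196 CPM. Barcodes that ended in a base gave KRT8 at 103, 220 and 179 CPM, and those that ended in an undetermined base at 97.4, 205 and 161 CPM. Cells at or above the median mitochondrial share had less KRT8 than the others in VCaP-ENZ48 (194 against 220 CPM) and in LNCaP-ENZ168 (160 against 189 CPM), and about the same in VCaP parental (99.1 against 97.7 CPM). KRT18 went the same way, at 375 against 429 CPM in VCaP-ENZ48 and 412 against 504 CPM in LNCaP-ENZ168.

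Across LNCaP-ENZ168 and VCaP-ENZ48 KRT8, KRT18 and KRT19 had unequal ratios. With VCaP-ENZ48 as the base, KRT8 in LNCaP-ENZ168 had a log2 ratio of -0.25 (-0.35 to -0.15) and KRT18 of 0.19 (0.12 to 0.25), and their sum of 0.05, with a lower bound at about 0 and an upper one of 0.11. KRT19 was lower in LNCaP-ENZ168, with a log2 ratio of -2.88 (-4.48 to -2.60). Here the median of 8854 genes was itself at 0.65, 35.5% of genes were at least 2-fold higher and 11.1% at least 2-fold lower. Of the 3 members with a mean of at least 10 CPM, KRT19 alone was at least 2-fold lower and 0 were higher. KRT19 passed that minimum only through VCaP-ENZ48, where it was high, so it had to differ and nothing is read from this count. TMM and median-of-ratios factors shift the median log2 ratio of CPM + 1 over all genes by -0.52 and -0.48. The factors turn KRT18 to -0.34 and -0.31 and the sum of KRT8 and KRT18 to -0.48 and -0.44, so the direction of both rests on the scaling. Relative to the median of all genes the log2 values were -0.60 for the sum, -0.90 for KRT8, -0.47 for KRT18 and -3.54 for KRT19. KRT14 had a log2 ratio of 0.004, with an interval from -2.14 to 1.85.

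Detection per cell was compared at equal depth, with each cell thinned to 2000 UMIs and 0, 30 and 1 shallower cells left out of VCaP parental, VCaP-ENZ48 and LNCaP-ENZ168. KRT18 was found in 44.9% of thinned VCaP parental cells (41.8 to 48.1%), 54.4% of VCaP-ENZ48 cells (51.1 to 57.7%) and 58.6% of LNCaP-ENZ168 cells (55.4 to 61.8%). KRT8 was found in 17.9% (15.5 to 20.4%), 33.9% (30.9 to 37.1%) and 28.5% (25.7 to 31.5%). A second draw of the thinning gave 47.5, 55.6 and 56.5% for KRT18 and 19.8, 32.4 and 31.1% for KRT8. For both genes the intervals of VCaP-ENZ48 and LNCaP-ENZ168 overlapped, so only the lower share in VCaP parental is read. Unthinned, KRT18 was found in 98.7, 90.0 and 88.7% of cells and KRT8 in 77.6, 78.8 and 63.3%. VCaP parental then had the highest KRT18 share, where at equal depth it had the lowest. KRT19 was found in 2.51% (1.63 to 3.68%), 4.25% (3.04 to 5.77%) and 0.318% (0.0657 to 0.927%) of thinned cells and 25.2, 20.5 and 1.17% of unthinned ones. For KRT19 the second draw gave 3.31, 2.94 and 0.212%, so no order of the VCaP libraries is read from these shares. Of KRT5 and TP63, 0 of 997, 917 and 943 thinned cells had a UMI, which allows up to 0.301, 0.327 and 0.318% of cells with a UMI at this depth and does not limit the share of cells that express the genes.

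**Figure D5:**
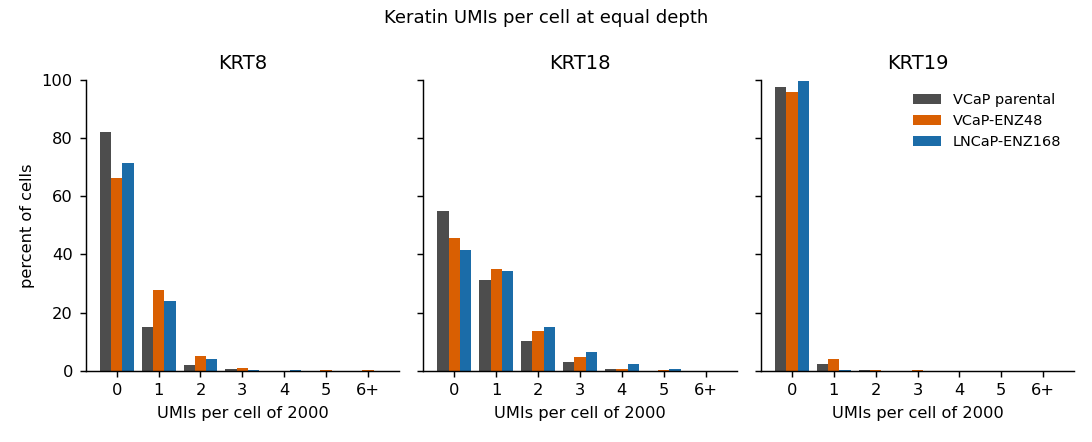
Percent of cells with 0 to 6 or more UMIs of KRT8, KRT18 and KRT19 after thinning each cell to 2000 UMIs, in the 3 libraries. Most cells have 0 or 1 UMI of each gene, and the bar at 0 UMIs of KRT8 is lowest for VCaP-ENZ48, where 33.9% of cells have at least 1.

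By the unthinned shares above, KRT8 and KRT18 counts were spread over many cells rather than held by a few. The variance of the thinned count was 1.04 to 1.25 times its mean for KRT8 and KRT18 in the 3 libraries, where counting alone gives 1. At means of 0.214 to 0.958 UMIs a cell this ratio stays near 1 even where levels differ between cells. No evenness of levels is therefore read from it. The highest single count was of KRT8 in VCaP-ENZ48, where the top cell had 9 UMIs of 2000. More than 1 UMI was found in that library in 57 cells for KRT8 and in 178 cells for KRT18. KRT8 and KRT18 were found together in 8.53% of VCaP parental cells (6.87 to 10.4%), 18.9% of VCaP-ENZ48 cells (16.4 to 21.6%) and 18.3% of LNCaP-ENZ168 cells (15.9 to 21.0%). Neither was found in 45.7, 30.5 and 31.2% of cells. Across cells the Pearson correlation of KRT8 with KRT18 was 0.044 (997 cells), 0.11 (917 cells) and 0.099 (943 cells), which in counts this sparse is no finding.

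The genes with the pattern most like a keratin over the 3 libraries were found by the distance between log2(CPM + 1) values centred on their mean, among genes of at least 50 CPM in every library. Nearest to KRT8 were EIF4B (174, 366 and 310 CPM), CAMK2N1 (142, 305 and 250 CPM) and SLC25A37 (95.6, 192 and 171 CPM), of 2171 candidates. Nearest to KRT18 were PSMF1 (60.9, 78.2 and 89.5 CPM), CCDC90B (56.6, 73.6 and 81.3 CPM) and PSMA3-AS1 (66.2, 87.1 and 97.6 CPM). KRT19 had no match as near. Its distance to SNHG5, RPS18 and ID2 was 0.24, 0.26 and 0.39, against 0.005 between KRT8 and EIF4B. KRT19 itself was at 1.74 CPM in LNCaP-ENZ168, under the 50 CPM asked of candidates. Genes of its level and pattern could therefore not be candidates, and its lack of a near match is not read as a trait. Over thinned cells, the summed KRT8 and KRT18 count had its highest lowest-of-3 correlation with RPLP0 (0.085, 0.13 and 0.081), SAT1 (0.090, 0.17 and 0.072) and RPL3 (0.072, 0.11 and 0.20), followed by IMPDH2 and NAAA. These are weak values in sparse counts from cells that share a library.

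The other keratins were at 0 or low. Of 47 other keratin genes, 16 had a row and KRT10 was the only one with a mean of at least 10 CPM, at 22.8, 15.9 and 27.9 CPM. KRT10, a type I keratin known from suprabasal epidermis, was thus at about the level of KRT19 in the VCaP libraries and well above it in LNCaP-ENZ168. KRT2 had 11, 5 and 1 UMIs, and KRT20 and KRT6C had 3 UMIs each in LNCaP-ENZ168 and 0 in VCaP.

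Among other intermediate filament genes, NEFL, INA and NEFM had the highest levels in VCaP parental. Of 7 genes averaging at least 10 CPM in the VCaP comparison, 1 was at least 2-fold higher in VCaP-ENZ48 and 1 lower. The shares over all genes were 8.19 and 6.77%, and the median log2 ratio of the 7 was 0.039. NEFH, the heavy neurofilament chain, was at 7.53 CPM in VCaP parental and 41.8 CPM in VCaP-ENZ48 (log2 ratio 2.33). LMNB1, the nuclear lamin B1, was at 17.8 and 4.0 CPM (-1.91). NEFH and LMNB1 passed the 10 CPM minimum only through the library where each was high, so nothing is read from these counts. The neurofilament genes NEFL (139, 166 and 15.05 CPM), NEFM (28.0, 25.03 and 0 CPM) and INA (38.7, 39.8 and 0.158 CPM) were high in VCaP and low in LNCaP-ENZ168, and LMNA, the nuclear lamin A/C, was lower in VCaP (16.1, 13.5 and 87.8 CPM).

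Keratin filaments are anchored at desmosomes, and 8 genes of that list had a mean of at least 10 CPM in the VCaP comparison. Of these 8, 1 was at least 2-fold higher and 0 lower, against 8.19 and 6.77% of all genes, with a median log2 ratio of 0.30. JUP, the junctional protein plakoglobin, was at 10.3 CPM in VCaP parental and 33.1 CPM in VCaP-ENZ48 (log2 ratio 1.60). DSG2, the desmosomal cadherin of simple epithelia, was at 72.4 and 145 CPM (0.99). DSP, the desmoplakin that binds keratin to the desmosome, was at 56.0 and 67.8 CPM (0.27), DSC2 at 71.8 and 55.3 CPM (-0.37), and the keratin-binding TCHP at 42.9 and 28.2 CPM (-0.59). In LNCaP-ENZ168 against VCaP-ENZ48, 4 of 8 were at least 2-fold higher and 0 lower, where 35.5 and 11.1% of all genes were, with a median of 1.15 against 0.65 over all genes, and DSP was at 237 CPM.

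Epithelial transcription factors and luminal genes gave the following values in the VCaP comparison, as scaled to library totals. TMM and median-of-ratios factors, which shift the median log2 ratio over all genes by -0.28 and -0.22, were not applied to the gene lists. Calls near 2-fold can therefore rest on the scaling. Of 8 transcription factor genes averaging at least 10 CPM, 4 were at least 2-fold higher in VCaP-ENZ48 and 0 lower, against 8.19 and 6.77% of all genes, with a median of 0.98. Among these were SOX9 (23.6 and 65.3 CPM), GATA2 (133 and 343 CPM) and ELF3 (27.7 and 60.1 CPM). EHF (293 and 229 CPM) and ESRP1 (78.2 and 48.2 CPM), a splicing factor of epithelial cells, were lower in VCaP-ENZ48, and GRHL2 was at 36.6 and 67.9 CPM. Of 13 luminal prostate genes 2 were at least 2-fold higher and 0 lower, beside the same shares of all genes, with a median of 0.64: FOLH1, which codes for prostate-specific membrane antigen (315 and 710 CPM), and HOXB13, a prostate homeobox gene, just past the limit (190 and 382 CPM, log2 ratio 1.00). ACPP, for prostatic acid phosphatase, was at 1959 and 3767 CPM and KLK2, for a prostate kallikrein, at 1554 and 3053 CPM, both just under 2-fold.

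Other genes known from basal epithelium were measured beside the basal keratins. Of 20, 18 had a row and 4 had a mean of at least 10 CPM in the VCaP comparison. Of these 4, 0 were at least 2-fold higher and 1 lower, against 8.19 and 6.77% of all genes, with a median of 0.20. DST, for the hemidesmosome linker dystonin, was at 90.4 and 97.9 CPM, BCAM, a laminin receptor, at 31.7 and 58.0 CPM, and ITGA6, the integrin alpha-6 chain, at 32.8 and 40.3 CPM. LAMA3, for a laminin chain of epithelial basement membrane, was lower in VCaP-ENZ48 (17.9 and 7.48 CPM, log2 ratio -1.16) and at 56.1 CPM in LNCaP-ENZ168. It passed the 10 CPM minimum only through VCaP parental, where it was high, so nothing is read from the 1 lower gene. DST, BCAM, ITGA6 and LAMA3 are also active outside basal cells. Of the genes listed for club and hillock epithelium, AQP3, a water and glycerol channel, was over 2-fold higher in VCaP-ENZ48 (18.9 and 84.0 CPM, log2 ratio 2.10) and at 16.9 CPM in LNCaP-ENZ168. WFDC2 (4.97, 4.06 and 0 CPM) and PSCA (1.38, 3.64 and 3.80 CPM), further genes of that list, were low in all libraries.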

How the data were processed

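Drop-seq libraries of LNCaP-ENZ168, VCaP parental and VCaP-ENZ48 were analysed, 1 per group. The deposited files hold unnormalized UMI counts, genes by barcodes. Reads had been aligned by the authors with STAR to GRCh38 and counted against Gencode with the Drop-seq tools and Picard at default settings, with 1000 cells expected and 1000 barcodes in each file. Coordinates come from a later Gencode version on GRCh38.

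The members and gene lists were chosen with earlier results of these data known. A barcode was kept with 300 or more genes, 500 or more UMIs and a mitochondrial share up to 25%, which left out 3, 53 and 56 barcodes of VCaP parental, VCaP-ENZ48 and LNCaP-ENZ168. Doublets were not called, and barcodes deeper than 3 times the median were dropped in an alternative. UMIs were summed over cells and divided by the library total. Ratios are log2 of CPM + 1. Intervals are exact (Poisson for levels, conditional for ratios, Clopper-Pearson for shares) at 95%, and cover counting error only, since no library was repeated. Limits at 0 use 3 counts.

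Named genes were the 8 members, in each of 8 lists the 4 with the highest mean level and up to 4 with a mean of at least 10 CPM that were at least 2-fold apart between the VCaP libraries, the pseudogene rows, and the nearest genes in pattern. Some named genes are not reported here. Cell cycle genes came from Seurat 5.3.0 and TMM and median-of-ratios factors from edgeR 4.0.16, in R 4.3.3; other steps used Python 3.11.15, scipy 1.17.1, numpy 2.4.6, matplotlib 3.10.9 and pandas 2.3.3. The steps were tested on simulated data.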

Additional observations from a re-analysis of the deposited data

Results flagged for a closer look

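Signal was also found in the barcodes that the cell filter left out. The 3 such barcodes of VCaP parental held 8 UMIs of KRT8 and KRT18 (448 CPM, 95% interval 194 to 883), the 53 of VCaP-ENZ48 held 86 (353 CPM, 282 to 436) and the 56 of LNCaP-ENZ168 held 56 (280 CPM, 211 to 363). The level in the left-out barcodes was below that of the kept cells in VCaP-ENZ48 and LNCaP-ENZ168, where the kept cells were at 613 and 636 CPM. In VCaP parental the interval included the 419 CPM of the kept cells.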

How the results depend on the processing

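No paired analysis was possible because the groups hold 1 library each, and for the same reason no replicate could be left out. Between the VCaP libraries, summed KRT8 and KRT18 had a log2 ratio of 0.55, which moved to 0.26 with TMM, 0.32 with median-of-ratios factors, 0.68 without mitochondrial and ribosomal protein genes, 0.64 with pseudogene rows added, 0.15 in cells with a cell cycle share no higher than the VCaP-ENZ48 median and 0.24 in the lowest part of each library by that share, an alternative chosen after seeing the data because the former left 12 VCaP parental and 48 LNCaP-ENZ168 cells. In those 4 settings of scaling by TMM or median-of-ratios and of cell cycle share, the number of members at least 2-fold apart went from 1 to 0. The 12 cells also turned KRT18 to -0.0090 and put the summed basal genes at 0.73, against -0.42. For LNCaP-ENZ168 over VCaP-ENZ48, the sum of KRT8 and KRT18, 0.05, was -0.48 with TMM, -0.44 with median-of-ratios factors, -0.23 without mitochondrial and ribosomal protein genes, -0.031 at the cell cycle limit, -0.051 with pseudogene rows added and 0.19 in the lowest part. KRT18 alone was -0.34, -0.31 and -0.092 in the first 3 of these. KRT19 fell under 10 CPM in both cell cycle settings, so 0 members were then 2-fold apart. The causes were not tested. The cell filters, barcode choices, equal weighting of cells and the pseudocount kept the direction of KRT8 and KRT18 and of their sum in both comparisons, and KRT8 stayed at least 2-fold apart between the VCaP libraries in each of them. Depth limits KRT7 and the basal genes, whose ratios rest on 25 UMIs or fewer in a library.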
